A study of Mus musculus with 6 samples.

Results

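miR-140 and miR-455 are microRNAs, short RNAs that pair with messenger RNAs and lower their translation or stability, mostly through the bases of their seed near the 5′ end. Both are processed from introns of protein-coding genes that are active in cartilage, and each hairpin yields a 5p and a 3p arm. Every name on the array with the stem miR-140 or miR-455 was taken, which gave 4 of 690 miRNA names: mmu-miR-140-3p, mmu-miR-140-5p, mmu-miR-455-3p and mmu-miR-455-5p (the prefix, for mouse, is left out below). They were measured on 1-colour arrays in sorted mouse cells. The GFP-high group held 3 preparations of cells from wounds 7 days after injury, called myofibroblasts by the submitters, and the GFP-low group held 3 preparations of fibroblast-like cells from skin. All mice carried GFP under control of smooth muscle actin (SMA), a marker of contractile cells, and cells with the blood marker CD45 or the endothelial marker CD31 were sorted out of both groups. The sort used GFP itself, so tissue and GFP level changed together. Strain, age and the number of animals are not given in the sources used here, so p-values measure the spread between preparations, which may be partly technical, and the small number of arrays limits their precision. The preparations are named by their sample numbers, wound 3, 4 and 6 and skin 1, 2 and 5.

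miR-140 is known as a cartilage miRNA: it is expressed with the chondrocyte factor Sox9, its loss in mice shortens the limbs and leads to early cartilage wear, and the aggrecan-degrading enzyme Adamts5 is among its targets. Its host gene Wwp2 encodes a ubiquitin ligase. miR-455 lies in Col27a1, a fibrillar collagen gene of cartilage. In human chondrocytes it has been linked to TGF-β and Smad signalling, the pathway that also drives fibroblasts to become myofibroblasts, and in mice it promotes brown fat formation. In the RefSeq table for GRCm38.p6, Mir140 lay within the span of Wwp2 on chromosome 8 and Mir455 within that of Col27a1 on chromosome 4, each on the strand of its host.

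The mature sequences are shown to identify the arms, and no result below rests on a seed. They are RefSeq sequences, 5′ to 3′, with the seed (bases 2 to 8) in capitals. The table held 3 of the 4 arms.
miR-140-3p: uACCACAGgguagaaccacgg
miR-455-3p: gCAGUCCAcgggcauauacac
miR-455-5p: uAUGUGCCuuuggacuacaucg
In GRCm38.p6 these lie on the plus strand at chr8:107551288-107551308, chr4:63256904-63256924 and chr4:63256867-63256888, in the order printed. They are 21, 21 and 22 bases long, with a GC content of 57.1%, 57.1% and 45.5%. Of the 534 array names with a mature sequence in that table, 0 others carried any of these 3 seeds.

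The arrays were on 1 slide and each arm had a pair of probes with 10 spots each. A miRNA's level is its background-subtracted signal, averaged over its probes, divided by the array's 75th percentile of detected probes and put on a log2 scale with a common floor at -5.30. The percentile was 786 to 1136 intensity units on the wound arrays and 1244 to 1772 on the skin arrays, and 211 to 233 and 187 to 224 names were well above background. Over 222 tested miRNAs the arrays correlated at 0.985 to 0.992 within a group and 0.846 to 0.883 between groups. Columns 1 to 3 of the authors' deposited log2 table hold the arrays titled 3, 4 and 6, and columns 4 to 6 those titled 1, 2 and 5. The directions below follow the titles of the arrays to which the scanner files belong. The sort was checked with marker miRNAs. Of 5 blood cell and 8 striated muscle names 0 reached the detection filter of the test, though blood cell miR-451a was above background on 2 skin arrays. The 12 keratinocyte names summed to a scaled signal of 0.00513 to 0.00920 on the wound arrays and 0.120 to 0.204 on the skin arrays. Of these names 10 were above background on no array, so the skin sum does not show a full keratinocyte set. Detection was limited to miR-205-5p and miR-203-3p, each on 0 wound arrays and all 3 skin arrays. The 3 smooth muscle names summed to 0.422 to 0.444 and 0.176 to 0.206. Endothelial miR-126-3p was above background on all 3 arrays of each group. Its difference did not pass (0.50, limma adjusted p = 0.109) and ranged from -0.22 to 0.50 over 5 scalings.

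The 2 loci moved in opposite directions. As scaled here, both arms of miR-455 were higher in wound myofibroblasts than in skin cells, miR-455-3p by 3.93-fold. Both arms of miR-140 were lower, at 0.668 and 0.755 times the skin level. Under 4 other scalings the miR-455-3p difference was smaller and the miR-140 differences were larger. miR-140-3p, miR-140-5p and miR-455-3p were above background on all 6 arrays and passed a Benjamini-Hochberg adjusted p of 0.05 in limma, as did 64.9% of the tested miRNAs: 44.1% were higher and 20.7% lower. miR-455-5p passed too, but it entered the test only through the wound arrays and was at the floor in skin, so its call and its lack of overlap followed from the filter. In the other 3 arms the wound and skin values did not overlap, and the same held for 69.8% of the tested miRNAs, 48.6% with higher and 21.2% with lower wound values. A call alone therefore sets none of the arms apart from the rest of the array. In total 98 miRNAs were higher and 46 lower. With 4 other scalings these numbers were 52 and 76 (75th percentile of all probes), 66 and 66 (median), 70 and 67 (quantile), and 54 and 54 (no scaling). The arms kept their calls under all 4, though for miR-455-5p the unchanged filter and a skin signal not well above background favoured that outcome.

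**Figure D1:**
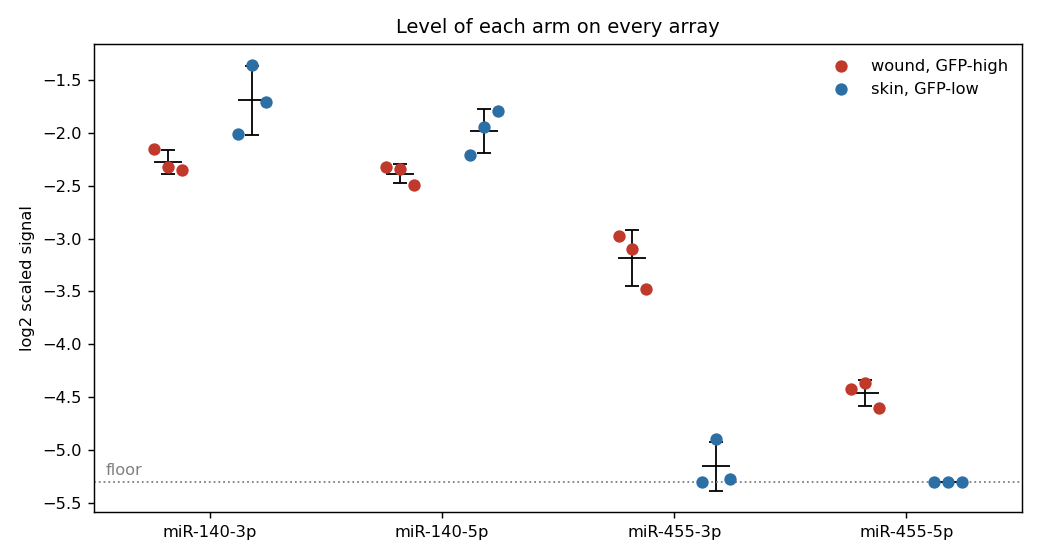
Log2 scaled signal of each arm on every array. Red points are the 3 wound GFP-high arrays, blue points the 3 skin GFP-low arrays, black bars the mean and SD, and the dotted line the floor of -5.30. Both miR-140 arms sit lower on the wound arrays, both miR-455 arms sit higher, and miR-455-5p is at the floor on all skin arrays.

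Of the 3 arms above background in both groups, miR-455-3p had the largest difference as scaled here. Its log2 level was -2.98, -3.10 and -3.48 on wound arrays 3, 4 and 6, and -5.30, -4.89 and -5.28 on skin arrays 1, 2 and 5. Every wound value lay above every skin value, and skin 1 was at the floor, with skin 5 close to it. The mean was -3.18 ± 0.26 in wound cells and -5.16 ± 0.23 in skin cells (SD, n = 3 each). The log2 difference was 1.97 (SE 0.18, limma adjusted p = 0.00042), 1.59 above the median difference of all tested miRNAs, and 12.6% of tested miRNAs had a larger one. It kept its call without any 1 of the arrays (1.87 to 2.12) and was 2.12 and 1.99 within the rows of the slide.

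The brighter of its probes, A_54_P2937, carried most of that signal. Its unscaled processed signal was 171, 222 and 175 intensity units on wound arrays 3, 4 and 6, against 58.0, 76.6 and 85.7 on skin arrays 1, 2 and 5, so the groups were apart before any scaling. All 30 of its spots were well above background in each group. The dimmer probe, A_54_P2936, gave 28.8 to 34.03 units on the wound arrays and 3.62 to 7.14 on the skin arrays, with 12 of 30 and 0 of 30 spots well above background. Taken alone, and held at the floor in skin, it did not pass (0.28, adjusted p = 0.14). The total signal that the scanner software computes per miRNA was 114, 149.5 and 117 units in wound cells and 34.2, 44.0 and 49.2 units in skin cells.

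miR-455-5p, the other arm of that hairpin, was dim in both groups. It stood at -4.42, -4.37 and -4.60 on wound arrays 3, 4 and 6 and was not well above background on any skin array, where all 3 values were set to the floor. As scaled here, its wound level was at least 2.02-fold higher than in skin. This bound was set by the lowest signal well above background on each skin array, or the arm's own signal where that was higher. It depends on the scaling. The fitted difference of 0.84 (limma adjusted p = 0.00026) is a distance from the floor: it was 2.45 with the floor divided by 4, 2.84 with the software's total signals and 6.60 with the authors' deposited table, its columns matched to the arrays by values after the data were seen. Its SE of 0.07 is too small, because no spread can be measured at the floor.

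For this arm too a single probe gave the signal. A_54_P3634 read 58.0, 77.2 and 74.5 intensity units on wound arrays 3, 4 and 6, and 19.8, 18.6 and 22.1 units on skin arrays 1, 2 and 5. It was well above background in 30 of 30 wound spots and 0 of 30 skin spots. On its own, and as scaled here, it was at least 3.11-fold higher in wound cells. A_54_P3633 was well above background in 5 of 30 wound spots and 1 of 30 skin spots and did not pass on its own (0.02, adjusted p = 0.68). The scanner software's total signal was 33.2 ± 4.93, 61.9 ± 7.20 and 43.0 ± 5.66 units (± the software's error) in the wound cells. In skin it was 0.1 units, the lowest value the software writes, on arrays 1 and 2, and 12.7 ± 4.05 on array 5. The software flagged the arm as detected on skin 5 but not on skin 1 and 2.

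**Figure D2:**
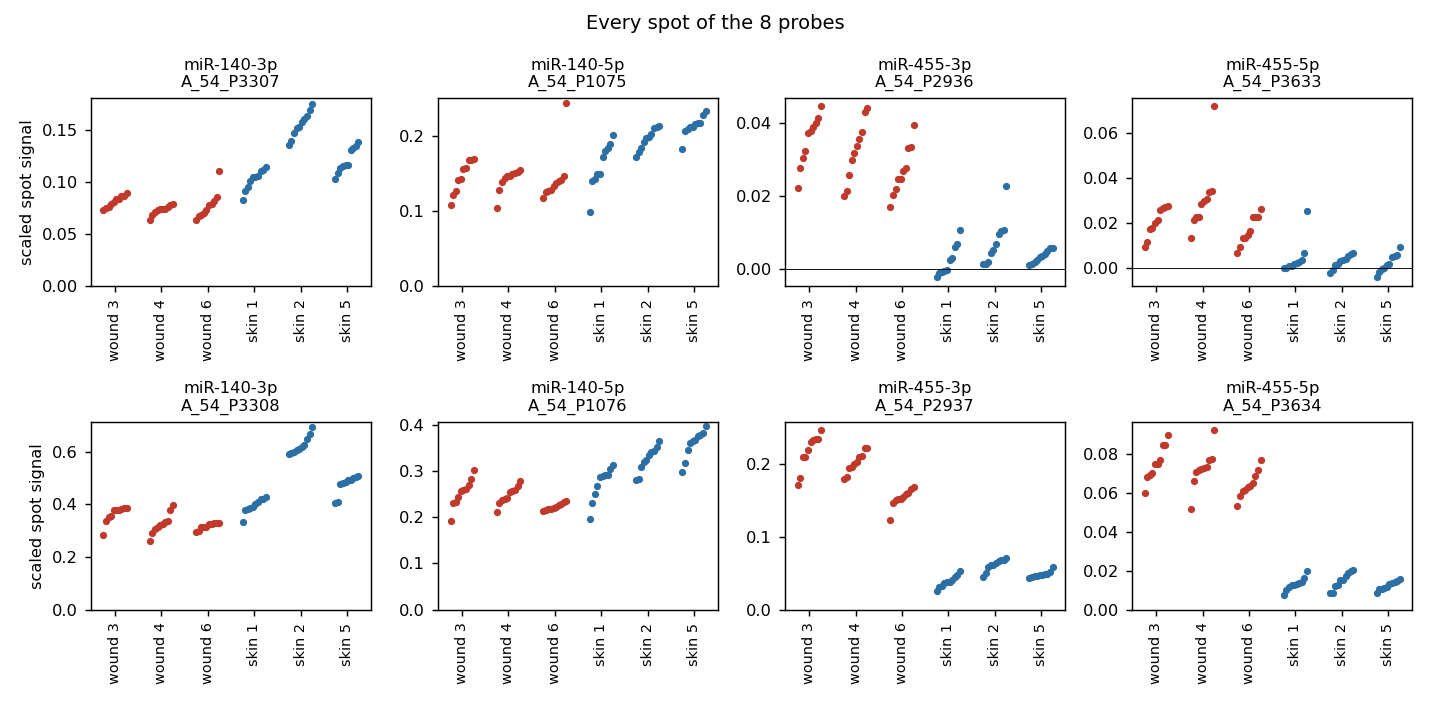
Processed signal of every spot divided by the array's scaling percentile, for the 8 probes of the 4 arms, spots with outlier flags included and sorted by signal within an array. Red is wound GFP-high and blue skin GFP-low, and each panel has its own linear axis. The brighter miR-455 probes, A_54_P2937 and A_54_P3634, show no overlap of wound and skin spots, while the miR-140 probes show smaller shifts the other way. Spots of an array are technical repeats and not samples, and A_54_P3634 met the detection filter only through the wound arrays.

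Both miR-140 arms were detected by all of their probes on all 6 arrays. miR-140-3p stood at -2.15, -2.32 and -2.35 on wound arrays 3, 4 and 6, and at -2.01, -1.36 and -1.71 on skin arrays 1, 2 and 5. The wound values lay close together and below the skin values, among which skin 1 came nearest to them. The mean was -2.27 ± 0.11 in wound cells and -1.69 ± 0.33 in skin cells (SD, n = 3 each). The difference was -0.58 (SE 0.18, limma adjusted p = 0.038).

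miR-140-5p behaved alike in direction and was smaller in size. It stood at -2.32, -2.34 and -2.49 on wound arrays 3, 4 and 6 and at -2.21, -1.94 and -1.79 on skin arrays 1, 2 and 5, with skin 1 again the skin value nearest to the wound arrays. The mean was -2.38 ± 0.09 in wound cells and -1.98 ± 0.21 in skin cells (SD, n = 3 each). The difference was -0.40 (SE 0.12, limma adjusted p = 0.034). Relative to the median difference of all tested miRNAs, miR-140-3p and miR-140-5p lay at -0.96 and -0.78 on the log2 scale.

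The miR-140 probes showed the same direction before scaling. The skin arrays had the higher scaling percentile (1244 to 1772 units, against 786 to 1136 on the wound arrays), which widens the unscaled gap. Averaged over probes, miR-140-3p had 206 intensity units in wound cells and 466 in skin cells, and miR-140-5p had 192 and 386. On A_54_P3308, the brighter miR-140-3p probe, the wound arrays read 291 to 361 units and the skin arrays 587 to 872. Each of the 4 miR-140 probes passed limma on its own with a lower wound level, from -0.70 for A_54_P3307 to -0.39 for A_54_P1076. The spread between the spots of a miR-140 probe on an array had a median coefficient of variation of 7.60%.

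The miR-140 calls were close to the threshold. With slide row as a blocking factor the limma adjusted p was 0.090 for miR-140-3p and 0.054 for miR-140-5p, and within the first and second row the differences were -0.47 and -0.63 for miR-140-3p and -0.25 and -0.62 for miR-140-5p. The miR-140-3p call was lost without wound 3, 4 or 6 or skin 5 (limma adjusted p = 0.069, 0.107, 0.11 and 0.094), and the miR-140-5p call without wound 3, 4 or 6 or skin 2 or 5 (0.072, 0.079, 0.105, 0.096 and 0.080). The differences stayed between -0.74 and -0.42 for miR-140-3p and between -0.52 and -0.31 for miR-140-5p when an array was left out. The keratinocyte miRNAs that were lower in the wound cells moved with this fall, and their part in it was not tested. In bulk RNA, fewer cells that contain a miRNA and less of it per cell cannot be told apart.

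**Figure D3:**
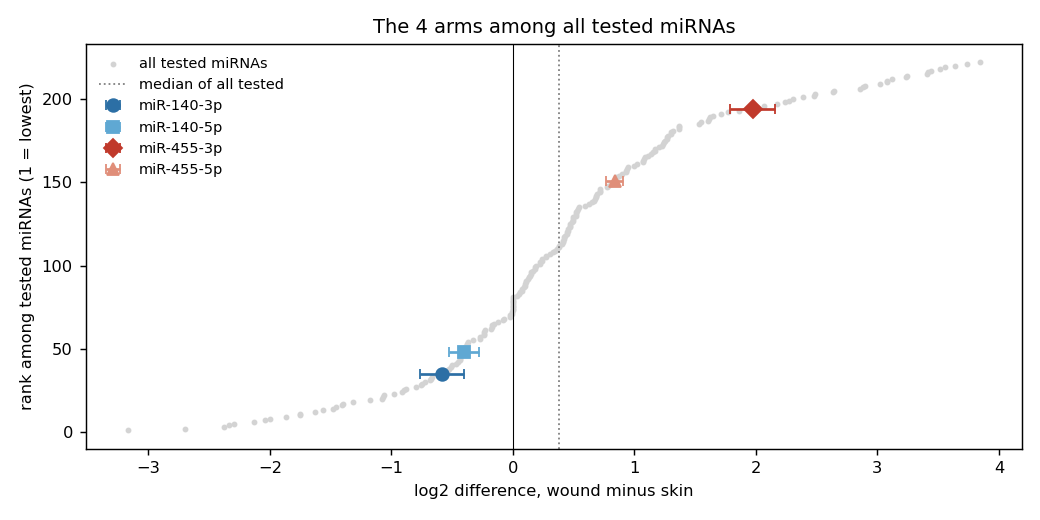
Log2 difference between wound and skin for all 222 tested miRNAs in order, with the 4 arms marked and their SE as bars. miR-140-3p (-0.58) and miR-140-5p (-0.40) lie left of 0, and miR-455-5p (0.84) and miR-455-3p (1.97) right of it and of the dotted median of all tested miRNAs (0.38).

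Scaling moved the differences without changing their order. Under the 4 other scalings miR-455-3p differed by 1.38 to 1.64 and miR-455-5p by 0.36 to 0.55. Under the same scalings miR-140-3p differed by -1.27 to -0.94 and miR-140-5p by -1.09 to -0.81, more than 1.5 times the sizes given above. Normexp background correction turned both miR-140 differences to 0.33 and 0.51 (adjusted p = 0.55 and 0.36), while the overall median difference became 1.03, so that both arms lay below it (-0.70 and -0.52). The miR-455 differences were then 1.25 and 1.07 for the 3p and 5p arms and did not pass (adjusted p = 0.17 each). They then lay only 0.22 and 0.04 above that median, against 1.59 and 0.46 in the processing reported here.

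A comparison within each array does not depend on the array's scaling factor for signals above the floor. The mean log2 level of the miR-455 arms minus that of the miR-140 arms was -1.46, -1.40 and -1.62 on wound arrays 3, 4 and 6, and -3.19, -3.45 and -3.54 on skin arrays 1, 2 and 5. Its absolute value compares different probes and has no meaning, so only its change between groups is read. On the skin side miR-455-5p was at the floor on all 3 arrays and miR-455-3p on skin 1, so the size of the change depends on the floor and, through it, on the scaling. As fitted it was 1.90 on the log2 scale (exact two-sided permutation test over samples, p = 0.1, the smallest that 3 against 3 arrays allow), and with miR-455-3p in place of both miR-455 arms 2.47. It was 0.58 with a floor 4 times as high, 0.74 with normexp, 2.75 with the floor divided by 4 and 3.12 with total signals.

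**Figure D4:**
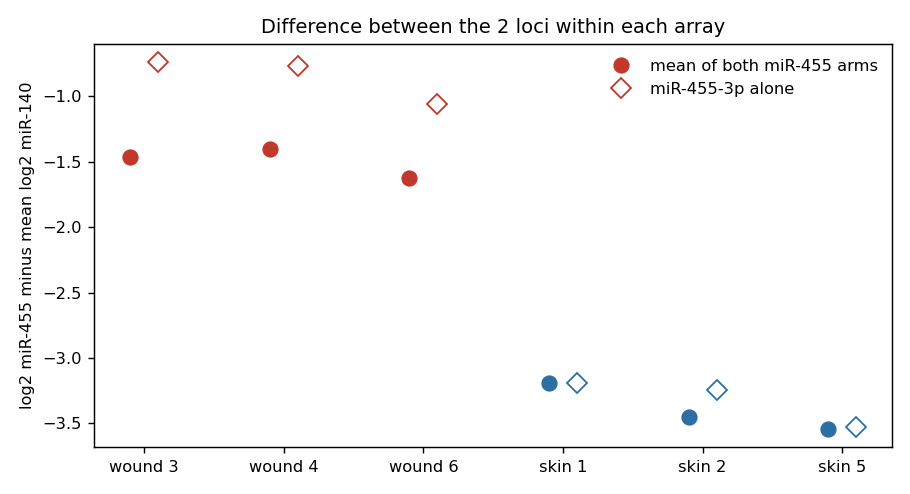
Log2 miR-455 minus mean log2 miR-140 within each array, in red for wound GFP-high and blue for skin GFP-low. Filled circles use both miR-455 arms and open diamonds miR-455-3p alone. The 3 wound arrays sit between -1.62 and -1.40 for both arms, above the skin arrays at -3.54 to -3.19, where miR-455-5p is at the floor.

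The arms of a hairpin were compared in the same way. For miR-140 the 3p arm minus the 5p arm averaged 0.11 ± 0.08 on the wound arrays and 0.29 ± 0.26 on the skin arrays (SD, n = 3 each), a change of -0.18 that was smaller than the SD of the skin arrays (exact permutation test, two-sided, p = 0.4). Skin 2 stood highest, at 0.58. For miR-455 the change was 1.13 (exact permutation p = 0.1), but it turned to -0.38 with the floor divided by 4 and to -0.92 with the total signals. Because the 5p arm was at the floor in skin, unequal change of the miR-455 arms was not measurable here.

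The miRNAs most like each miR-140 arm were found among 119 others that stayed above the floor on all 6 arrays. For miR-140-5p they were miR-151-5p, miR-103-3p and miR-331-3p, with root mean square distances of 0.07, 0.09 and 0.09 between mean-centred log2 levels. For miR-140-3p they were miR-199a-3p, miR-107-3p and miR-10a-5p, at 0.12, 0.12 and 0.14. Under quantile normalization only miR-151-5p and miR-107-3p remained among the nearest 3 of the same arm, and miR-331-3p came among those of miR-140-3p. miR-151-5p differed between wound and skin by -0.41 and miR-107-3p by -0.53. Neither miR-455 arm stayed above the floor on every array, so no likeness was computed for them.

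Other miRNAs linked to cartilage moved in both directions. Of 27 such names on the array, the 4 arms left aside, 17 were tested, and 8 were higher, 3 lower and 6 did not pass, beside 44.1% higher and 20.7% lower among all tested miRNAs, so the list is not set apart by its counts. Its median difference was 0.23, against 0.38 for all tested miRNAs. Across the other 4 scalings 4 to 7 were higher and 5 to 6 lower. miR-495-3p, not well above background on any skin array, was at least 7.04-fold higher in wound cells as scaled here. It met the detection filter only through the wound arrays, and so did miR-145a-5p, which was above background on 2 skin arrays. The filter favoured a higher call for both, and the shares over all tested miRNAs include such names too. miR-337-5p and miR-337-3p differed by 3.12 and 2.85, which are nearly distances from the floor (skin means -5.25 and -5.23). miR-495-3p and these miR-337 arms are encoded in the Dlk1-Dio3 domain named in the series title. miR-146a-5p, induced in inflammation, lay 1.21 above the floor in wound cells. Its probe average was at the floor on all 3 skin arrays, although a probe of it was well above background on each. miR-145a-5p, known to act on Sox9 in human chondrocytes, differed by 0.65 and was called under only 2 of 5 scalings. miR-27b-3p, which acts on the collagenase MMP13 in human chondrocytes, fell by 0.90. With normexp it stood at 0.012 (limma adjusted p = 0.98), against a median of 1.03 over all tested miRNAs.

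miR-455 is also known from brown fat, where it acts with other miRNAs. Of 18 further brown fat names on the array 9 were tested, and 3 were higher, 5 lower and 1 did not pass, beside 44.1% higher and 20.7% lower among all tested miRNAs. The median difference was -0.40, against 0.38 for all tested miRNAs. The higher ones were miR-155-5p (1.30 above the floor, at which all 3 skin arrays lay), miR-378a-3p (0.99, called under 2 of 5 scalings) and miR-193b-3p (0.38, called under 1 of 5). A probe of miR-155-5p was well above background on 2 skin arrays, and this miRNA met the detection filter only through the wound arrays. Among the lower ones, miR-203-3p met it only through the skin arrays. miR-365-3p, encoded beside miR-193b, differed by -0.24 and did not pass (adjusted p = 0.14), although it was called lower under 4 of 5 scalings, down to -0.92.

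**Figure D5:**
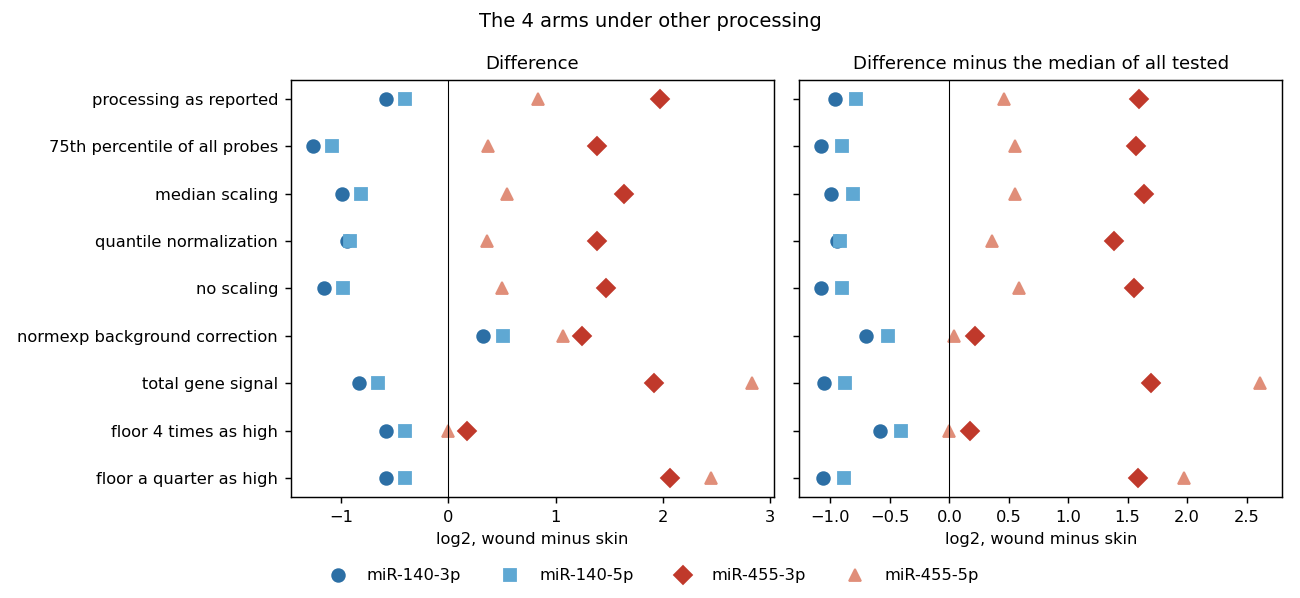
Log2 difference of each arm between wound and skin under the processing as reported and 8 alternatives, as fitted (left) and minus the median of all tested miRNAs (right). Left, the miR-140 arms lie below 0 except with normexp (0.33 and 0.51), and miR-455-3p lies above 0 throughout, from 0.18 with a floor 4 times as high to 2.07 with the floor divided by 4. miR-455-5p is at 0 with the higher floor, where both groups lie on it.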

How the data were processed

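Cy3-labelled total RNA was measured on Agilent miRNA arrays with 1 colour, per the labels, and the slide was read with Agilent Feature Extraction 10.7.3.1, per the file headers. The deposited values are linear spot intensity, with the background subtracted and no normalization across arrays. How the authors made their log2 table is not stated in the labels; its columns match the log2 total signals of single arrays up to a constant.

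Processed signals of spots without outlier flags were averaged per probe, divided by the array's 75th percentile (taken over the 275 probes that every array detected), averaged per miRNA, raised to a floor of 0.0253 and taken to log2. A probe was well above background if that flag was set on more than 50% of its spots. A miRNA was tested when a probe was so on all arrays of a group, and 222 of 690 passed, all 4 arms among them. The filter used the groups: miR-455-5p passed only through the wound arrays. 0 spots were saturated. Groups were compared with limma 3.58.1 in R 4.3.3 (lmFit, eBayes, two-sided, Benjamini-Hochberg over tested miRNAs), tested on simulated data. Named miRNAs are the 4 arms, the 3 nearest to each miR-140 arm, and up to 6 per list by smallest p among those passing. Named after their values were seen were miR-126-3p, miR-451a, miR-365-3p, miR-193b-3p, miR-30a-5p and miR-30e-5p. The members and lists were chosen with earlier results of these data known. Figures were drawn with matplotlib 3.10.9.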

Additional observations from a re-analysis of the deposited data

How the results depend on the processing

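The results were compared over 15 processing alternatives (14 for miR-455-5p), 1 of them added after the data were seen. Left-out arrays, single probes, single slide rows and the deposited table are not among them. miR-140-3p and miR-140-5p kept direction and call in 11 each, miR-455-3p in 13 and miR-455-5p in 12. The count for miR-455-5p says little about robustness. Its skin signal was not well above background, and its wound signal alone made it eligible for the test. No paired analysis was made, because the labels give no pairing of wound and skin preparations. Dim signals limit the miR-455 arms. With normexp (median signals, offset 50) the miR-140-3p and miR-140-5p differences were 0.327 and 0.512, and those of miR-455-3p and miR-455-5p were 1.25 and 1.07, none passing. Undetected names then had a raw signal of 160 to 184 on the wound arrays and 153 to 191 on the skin arrays, over a local background of 52 to 55 and 49 to 55.5, which this correction leaves in. It called 23 miRNAs, 16 higher and 7 lower, with 0 and 0 of the cartilage list (limma; the alternative with total signals called 4 higher). With a floor 4 times as high miR-140-3p (-0.58, adjusted p = 0.087), miR-140-5p (-0.40, 0.075), miR-455-3p (0.18) and miR-455-5p (0) lost their calls, and 78 miRNAs were called, 44 higher, with 3 higher in the list. Without a filter on dim miRNAs the miR-140 differences stayed at -0.58 and -0.40 with adjusted p of 0.20 and 0.175 over more tests, and 5 of the list were higher. Among miRNAs above background on all arrays 59 were higher, 5 of them in the list, and miR-455-5p could not be tested. With the slide row as a block miR-140-3p and miR-140-5p were -0.55 and -0.44 and did not pass. Within row 2 miR-140-5p was -0.62. Single probes that lost the call were A_54_P2936 (0.28) and A_54_P3633 (0.016).

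The 75th percentile of all probes gave 52 higher and 76 lower calls, and 4 higher and 6 lower in the cartilage list. Median scaling gave 5 and 6 in the list, quantile normalization 7 and 5, and no scaling 54 higher calls in all and 4 and 5 in the list. The median of all tested miRNAs turned to -0.19 with the 75th percentile of all probes and to -0.085 with no scaling. The change between the miR-455 arms turned to -0.917 with total signals and -0.380 with the floor divided by 4, which is set by the floor. With each array left out, the ranges were -0.74 to -0.42 for miR-140-3p, -0.52 to -0.31 for miR-140-5p, 1.87 to 2.12 for miR-455-3p and 0.79 to 0.91 for miR-455-5p, and 5 to 7 of the cartilage list were higher. Taking the columns of the authors' deposited table by sample number, which mixes the groups of the arrays, gave 0.158 for miR-140-3p, 0.277 for miR-140-5p, -0.906 for miR-455-3p, -1.12 for the change between the loci and -0.00529 for that between the miR-455 arms. It called 1 miRNA, higher, and 0 lower, with 0 and 0 in the list (limma). With its columns matched to the arrays by values, an alternative added after the data were seen, it called 78 lower and 5 higher and 7 lower in the list. The miR-455 arm change was then -4.88. On skin 1 and 2 miR-455-5p stood at the lowest value of its column (-12.16 and -11.97), so the size of that change depends on those values. Leaving out old registry names and using the brighter probe of each arm, also added then, changed no call of the arms.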

Other observations

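Some miRNAs known to act on matrix transcripts were lower in wound cells. Of 19 names of the miR-29, miR-30 and miR-133 families on the array 9 were tested, and 0 were higher, 6 lower and 3 did not pass, beside 44.1% higher and 20.7% lower among all tested miRNAs, with a median difference of -0.72 against 0.38 for all tested miRNAs. The lower ones outside the miR-29 family belonged to miR-30, which targets the matrix-inducing factor CTGF in rat heart cells. miR-30c-5p averaged -3.72 ± 0.06 in wound cells and -2.54 ± 0.11 in skin cells (SD, n = 3 each), a difference of -1.18 (limma adjusted p = 8.6e-05). miR-30b-5p and miR-30d-5p differed by -0.72 and -0.69. All 3 were called under each of 5 scalings and turned to between 0.52 and 0.70 with normexp, against an overall median of 1.03. miR-30a-5p (0.13) and miR-30e-5p (-0.38) did not pass. Over the 5 scalings miR-30a-5p ranged from -0.56 to 0.13, and miR-30e-5p was called lower in 4, down to -1.06.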
